A study of Mus musculus with 6 samples.

Results

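The clustered histone genes are the genes whose symbol places them in 1 of the 4 mouse histone gene clusters. They were taken by their symbol (those that start with Hist1h, Hist2h, Hist3h or Hist4h), which gave 68 of the 24421 gene symbols counted. Of these, 6 encode the linker histone H1, 18 encode H2A, 19 encode H2B, 12 encode H3 and 13 encode H4, with 1 pseudogene among the H2B genes. RNA was sequenced from endothelial cells sorted by flow cytometry from subcutaneous B16F0 tumours, a transplantable mouse melanoma, grown for 17 days in C57BL/6 mice. One group of 3 libraries came from tumours of mice given 15C4, an antibody that blocks the secreted glycoprotein LRG1, and the other 3 came from mice given control IgG. Both antibodies were injected at 50 mg/kg every 3 days, and the labels carry no genetic alteration of the mice and no age or sex. Nor do they say if each library had its own animal, and a p-value therefore reflects the spread of these libraries alone, which may be technical.

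Core histones H2A, H2B, H3 and H4 form the octamer around which DNA is wrapped, and H1 binds the linker DNA between octamers. Most clustered genes are transcribed during DNA replication, have no introns, and yield mRNAs that end shortly after a conserved stem-loop instead of in a poly(A) tail. The stem-loop binding protein SLBP and the U7 small nuclear ribonucleoprotein, of which LSM10 and LSM11 are subunits, direct the cut that forms this end. Some clustered genes also give longer, polyadenylated mRNAs in cells that have left the cycle. How the first cDNA strand was primed is not given in the sources used here, and this bears on which kind of mRNA a library can hold.

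The stem-loop was looked for in the annotated transcripts of all 68 members (GENCODE M21, GRCm38), by its known consensus, because it is the feature that sets these mRNAs apart. It was present in 46 members, as 8 different 16-base sequences, which are printed as DNA letters with both 6-base arms in capitals and the 4-base loop in lower case.
H1, H2A, H2B and H3 form, 26 members: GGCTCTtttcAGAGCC
H1, H2B and H3 form, 6 members: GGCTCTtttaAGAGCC
Hist2h2ac form, 1 member: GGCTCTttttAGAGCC
Hist1h3g form, 1 member: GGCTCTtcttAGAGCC
H4 form, 7 members: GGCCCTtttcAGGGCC
H4 form, 2 members: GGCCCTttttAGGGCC
H4 form, 2 members: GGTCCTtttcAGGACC
Hist1h4a form, 1 member: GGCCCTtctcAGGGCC
All 12 H4 members with a match carried one of the last 4 arms and loops, and no member of the other types did. Of the 22 members without a match, 16 have an annotated exon length that is a multiple of 3, as a model without untranslated regions has, so the missing match there says only that these letters are not in the annotated model.

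Many H2A and H2B genes lie head to head. There were 14 pairs of members on opposite strands whose starts lay within 1000 bases of each other, with gaps of 172 to 659 bases, and 13 of the 14 joined an H2A to an H2B gene. The stretches between the genes of 2 pairs are shown because Hist2h2be and Hist1h2bc are described at length with their partners. No relation of these letters to the counts was tested. They come from the RefSeq promoter windows (GRCm38.p6) of the H2A gene, from its RefSeq start to the start of the H2B gene, read on the strand of the H2A gene. Capitals mark the octamer ATTTGCAT, bound by OCT1, the CCAAT box and the letters TATAAA, each on either strand, and the 3 motifs do not overlap in either stretch.
Hist2h2ac/Hist2h2be, chr3:96220881-96221118, minus strand: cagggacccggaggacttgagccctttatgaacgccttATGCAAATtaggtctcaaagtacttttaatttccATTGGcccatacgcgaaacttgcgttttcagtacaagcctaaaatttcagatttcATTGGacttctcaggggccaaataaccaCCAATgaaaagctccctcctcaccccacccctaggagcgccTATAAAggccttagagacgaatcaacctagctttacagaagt
Hist1h2ac/Hist1h2bc, chr13:23683960-23684198, minus strand: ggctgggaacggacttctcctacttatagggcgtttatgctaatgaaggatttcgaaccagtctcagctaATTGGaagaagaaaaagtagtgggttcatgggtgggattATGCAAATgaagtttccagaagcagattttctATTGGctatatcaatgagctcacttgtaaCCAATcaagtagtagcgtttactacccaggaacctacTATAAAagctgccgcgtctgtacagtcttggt
Both stretches hold 1 octamer, 3 CCAAT boxes and 1 TATAAA. A promoter window was given for 61 of the 68 members, and the 250 bases before the start were searched in each. The octamer was in the windows of 7 of 17 H2A and 6 of 16 H2B members and in 0 of the 28 H1, H3 and H4 windows, against 1.60% of all 32817 windows. The CCAAT box was in all 17 H2A and all 16 H2B windows, in 6 of 6 H1, 8 of 10 H3 and 3 of 12 H4 windows, against 33.8% of all windows. TATAAA was in 29 of the 61 windows and in 12.4% of all windows.

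Library totals ranged from 5175600 to 19572202 counts, and 10413 to 13707 genes were detected per library. On the first principal component, with 45.7% of the variance, the library 15C4 3 lay away from the other 5 and it had the fewest genes detected. Transcripts of the melanocyte lineage summed to between 24057 and 29186 CPM (counts per 1000000 counts of the library) in the 6 libraries, more than the pan-endothelial markers in each of them (266 CPM in IgG 3, 1677 to 3715 CPM in the others). The part of melanoma cells in the histone levels was not tested, and in such bulk samples fewer cells of a type and less RNA per cell cannot be told apart. IgG 1 held the most T and NK cell transcripts (628 CPM, against 5.36 to 222 CPM elsewhere). It also had the highest sum of the macrophage and monocyte list (204 CPM, against 0.469 to 76.5 CPM). Ptprc, at 86.9 CPM, and Tyrobp and Fcer1g, each at 42.9 CPM, made up most of that sum. Ccr2 was also highest in IgG 1 (15.5 CPM). C1qa, C1qb, C1qc and Mrc1 were instead highest in 15C4 2 (4.65 to 19.7 CPM), against 0.193 to 0.580 CPM in IgG 1. IgG 1 further had the highest sum of the 22 mitosis genes, 3670 CPM against 878 to 1821 CPM elsewhere. In IgG 2 the lymphatic endothelial markers summed to 1168 CPM, against 11.6 to 63.8 CPM elsewhere. Of the fibroblast markers, Lum alone gave 151 of the 153 CPM in 15C4 3, where each other marker was at 0.782 CPM or less. In IgG 1 the total of 94.5 CPM was spread over several genes, among them Col3a1 (25.5 CPM), Col1a2 (24.3 CPM) and Lum (22.4 CPM). Elsewhere these markers came to between 0.119 and 4.56 CPM per library. The part of these cells in the histone results was not tested.

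More clustered histone genes had counts in the IgG libraries than in the 15C4 libraries. The 15C4 libraries 1, 2 and 3 held counts for 21, 32 and 8 of the 68 members, and the IgG libraries 1, 2 and 3 for 43, 39 and 25. The ranges overlap, since 15C4 2 lies above IgG 3. Within 15C4 the number followed depth, with 8, 21 and 32 members at 6392700, 8400846 and 19572202 counts. Within IgG it ran the other way, with 43, 39 and 25 members at 5175600, 9641617 and 11669085 counts. The part of depth in the difference between the groups was not tested. The share of members at 0 was 69.1% in 15C4 1, 52.9% in 15C4 2 and 88.2% in 15C4 3 (exact Clopper-Pearson 95% intervals 56.7 to 79.8%, 40.4 to 65.2% and 78.1 to 94.8%). It was 36.8% in IgG 1, 42.6% in IgG 2 and 63.2% in IgG 3 (25.4 to 49.3%, 30.7 to 55.2% and 50.7 to 74.6%). Of all 24421 genes, 51.9%, 47.0% and 57.4% were at 0 in 15C4 1, 2 and 3, and 43.9%, 47.8% and 50.8% in IgG 1, 2 and 3. These intervals treat the 68 members as independent draws, which the genes of a fixed list are not. They cover neither the counting error of the reads nor the spread between libraries. Intervals given below for single genes and pairs cover at most counting error, with each read taken as an independent draw. Amplified reads that carry no molecular identifiers are not independent molecules, so these intervals may be too narrow.

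**Figure D1:**
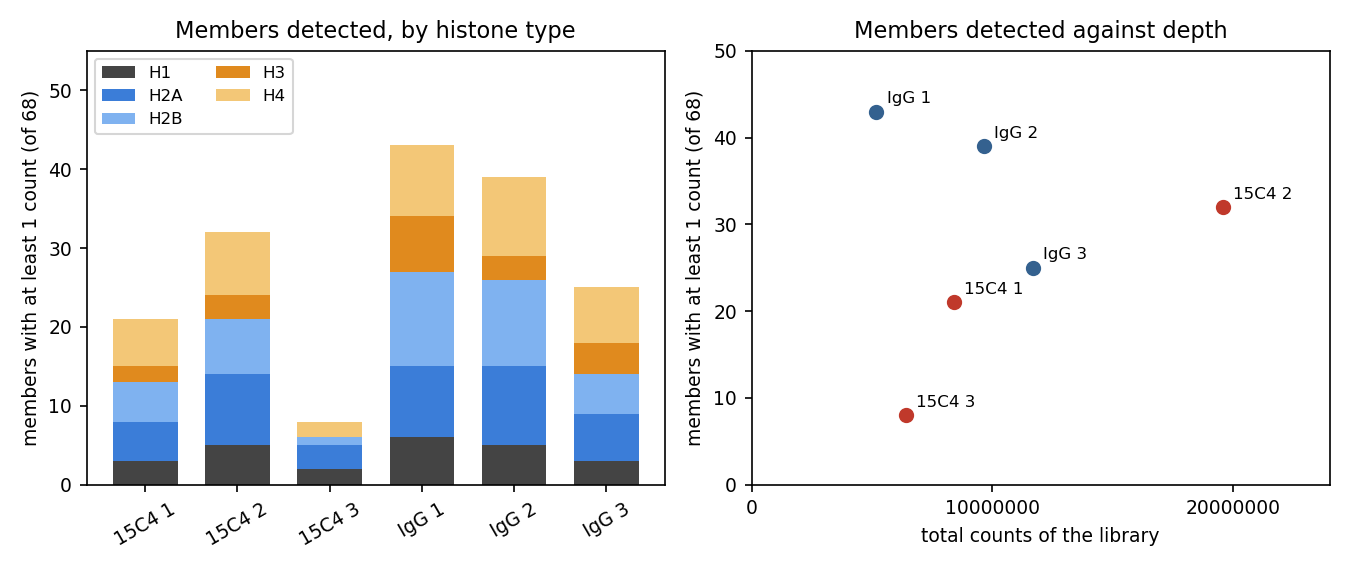
Left: number of clustered histone genes with at least 1 count in each library, stacked by histone type. Right: the same number against the library's total counts (red, 15C4; blue, IgG). IgG 1 showed 43 members at 5175600 counts, while 15C4 2 showed 32 at 19572202.

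When the libraries of each group were joined, 38 members had counts in 15C4 and 53 in IgG. There were 16 members with counts in IgG only, 1 in 15C4 only (Hist1h2aa, an H2A gene expressed in testis, with 1 count) and 14 in neither group. Of the 54 members with a count, 29.6% were thus seen in IgG alone, against 11.4% of all genes with a count, and 1.85% in 15C4 alone, against 7.89%. Leaving out 1 library at a time gave between 11 (without IgG 1) and 33 (without 15C4 2) members seen in IgG only. The 15C4-only number was then between 0 (without 15C4 1) and 6 (without IgG 2).

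The mean CPM was lower in 15C4 for 44 of the 54 members with counts (81.5%), against 56.1% of all genes with a count. It was lower for 5 of 6 H1, 11 of 13 H2A, 12 of 14 H2B, 7 of 9 H3 and 9 of 12 H4 members. Without IgG 1 the number was 37 of 49 (75.5%, all genes 50.9%), and without IgG 2 it was 39 of 52 (75.0%, all genes 52.3%). These members share the same libraries and most have few counts, so the numbers describe the list and are not a test of it.

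Across all counts, 1 H2B gene outweighed the other members. Hist1h2bc (GRCm38 chromosome 13, 23684199 to 23692908), which has a spliced annotated transcript without a matched stem-loop, held 24389 of the 31258 counts of the clustered histone genes, or 78.0%. Per kilobase of exon its mean level was 332 CPM, against 38.8 CPM per kilobase for Hist1h4d, the next in order. Hist1h2bc was at 523, 433 and 214 CPM in 15C4 1, 2 and 3, and at 305, 532 and 295 CPM in IgG 1, 2 and 3. The groups overlapped, with means of 390 ± 159 CPM for 15C4 and 377 ± 135 CPM for IgG (n = 3 each, SD). The log2 fold change was 0.11 (SE 0.39). Its direction turned with the libraries used, to -0.075 without 15C4 1, -0.012 without IgG 1 and -0.0060 without IgG 3.

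The summed level of all 68 members was 606, 529 and 246 CPM in the 15C4 libraries and 667, 664 and 377 CPM in the IgG libraries. Hist1h2bc made up 86.3%, 82.0% and 87.0% of it in 15C4 1, 2 and 3, against 45.7%, 80.2% and 78.1% in IgG 1, 2 and 3. The other 67 members summed to 83.3, 95.2 and 32.1 CPM in 15C4 and to 362, 131 and 82.4 CPM in IgG. The means were 70.2 ± 33.5 CPM for 15C4 and 192 ± 149 CPM for IgG (n = 3 each, SD), and 15C4 1 and 15C4 2 lay just above IgG 3. The mean log2 difference of this sum was -1.31, and -0.71 without IgG 1. In CPM, the DNA replication genes summed to 1715, 1342 and 2094 in 15C4 and to 2542, 2411 and 1855 in IgG. The sums of histones without Hist1h2bc, of DNA replication genes and of mitosis genes were thus all highest in IgG 1. By sum, 15C4 3, the lowest in histones, came next after IgG 1 and IgG 2 in DNA replication genes. In mitosis genes it came next after IgG 1. Its most abundant DNA replication genes were Rrm1 (341 CPM) and Rfc1 (223 CPM). Its most abundant mitosis genes were Mki67 (332 CPM) and Cenpf (322 CPM). Other genes of both lists were lowest in 15C4 3, among them Mcm3 (10.3 CPM), Dnmt1 (7.35 CPM), and Uhrf1, Pole, Kif11, Bub1b and Ttk (0 CPM each).

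**Figure D2:**
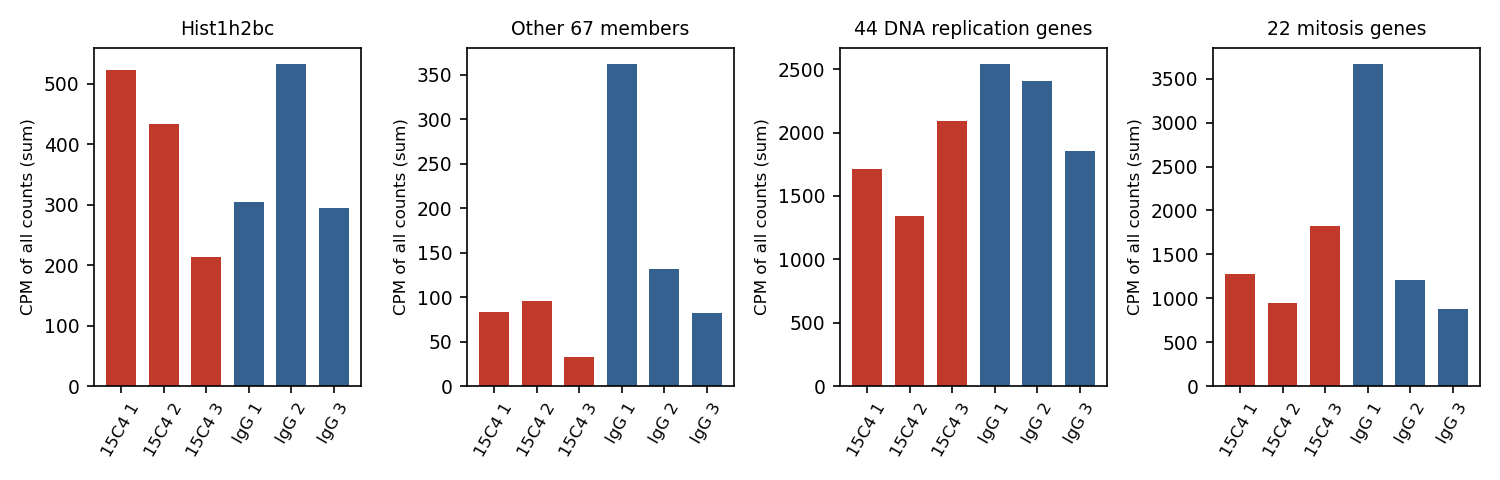
Summed CPM in each library (bars; red, 15C4; blue, IgG) of Hist1h2bc, of the other 67 clustered histone genes, of 44 DNA replication genes and of 22 mitosis genes. The other 67 members reached 362 CPM in IgG 1 and lay between 32.1 and 131 CPM in the other libraries.

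By type, the H4 genes summed to 12.5, 34.7 and 17.8 CPM in 15C4 and to 191, 34.7 and 30.8 CPM in IgG. The H2A genes summed to 19.2, 14.8 and 10.6 CPM in 15C4 and to 81.7, 26.8 and 18.6 CPM in IgG, and 15C4 1 lay above IgG 3. H1 genes were at 22.97, 25.6 and 3.60 CPM in 15C4 and at 56.0, 23.8 and 25.8 CPM in IgG. Without Hist1h2bc, H2B genes summed to 20.6, 18.3 and 0 CPM in 15C4 and to 27.6, 44.3 and 6.77 CPM in IgG. H3 genes were near the detection limit throughout, at 8.09, 1.74 and 0 CPM in 15C4 and 5.99, 1.76 and 0.428 CPM in IgG. Without IgG 1 the means were 21.7 CPM in 15C4 and 32.8 CPM in IgG for H4, 14.9 CPM in 15C4 and 22.7 CPM in IgG for H2A, and 17.4 CPM in 15C4 and 24.8 CPM in IgG for H1. IgG 1 was the highest library for H4, H2A and H1, IgG 2 for the other H2B genes and 15C4 1 for H3.

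Only 15 of the 68 members had counts enough to be tested with edgeR and limma-voom, since a gene passes that filter most easily where it is high. They were 2 H1, 4 H2A, 5 H2B and 4 H4 genes and no H3 gene. With edgeR's quasi-likelihood test none of the 15 passed an adjusted p of 0.05 (smallest adjusted p = 0.9997), as none of the 11144 tested genes did (0%). At an unadjusted p under 0.05 edgeR had 2 members, both lower in 15C4 (Hist2h2be and Hist1h4d), where 1.33% of tested genes were lower and 1.26% higher at this threshold. limma-voom called 0 members, as it called 0 of the 11144 tested genes. At the unadjusted threshold it had 1 member, Hist2h2be, lower in 15C4. Of all genes tested by limma-voom, 285 were lower and 176 higher at this threshold. DESeq2, used without that filter, gave an adjusted p to 50 members. It called 1 of these 50 (2%), Hist2h2be (adjusted p = 0.000228), where 0.323% of its 14546 genes were called lower. In the edgeR fit 10 of the 15 log2 fold changes were below 0, against 49.3% of all tested genes, with a median of -0.88 against 0.010.

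Hist2h2be (GRCm38 chromosome 3, 96221119 to 96223738), an H2B gene studied in mouse olfactory neurons as a replication-independent variant, was almost missing from the 15C4 libraries. Its counts were 1, 0 and 0 in 15C4 1, 2 and 3, against 80, 220 and 44 in IgG 1, 2 and 3, or 0.119, 0 and 0 CPM against 15.5, 22.8 and 3.77 CPM. The groups did not overlap, as was so for 2 of the 15 tested members and for 6.64% of all tested genes in this direction. The pooled level was 446 times as high in IgG as in 15C4 (95% counting interval 79.6 to 17680). Leaving out 15C4 2 gave a ratio of 192, leaving out IgG 2 gave 253 and leaving out IgG 3 gave 696. The level in 15C4 was at least 112-fold lower without 15C4 1, with 3 counts over the group as the floor. The edgeR test gave an unadjusted p of 0.00200. In the authors' deposited table, whose fold change is IgG over 15C4, it had an adjusted p of 1.67e-07. That table gives an adjusted p to 49 members. It lies under 0.05 for 3 of them, Hist2h2be, Hist1h4i and Hist1h2ac. The share of all genes under 0.05 in that table was not counted. None of the 50-base stretches of Hist2h2be occurs in another annotated transcript, and no annotated gene overlaps it.

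Its head-to-head partner Hist2h2ac, an H2A gene (chromosome 3, 96220361 to 96220880), did not share this pattern. It had 71, 60 and 13 counts in 15C4 and 38, 19 and 2 in IgG, or 8.45, 3.07 and 2.03 CPM against 7.34, 1.97 and 0.171 CPM, with overlapping groups. The log2 fold change was 0.55 (SE 1.53), -0.14 without 15C4 1 and 2.12 without IgG 1. Of the counts of the pair, Hist2h2be made up 1 of 72 in 15C4 1 (1.39%, exact 95% interval 0.0352 to 7.50%). It made up 0 of 60 in 15C4 2 and 0 of 13 in 15C4 3 (exact 95% intervals 0 to 5.96% and 0 to 24.7%). In IgG its share was 67.8% of 118 counts in IgG 1, 92.1% of 239 in IgG 2 and 95.7% of 46 in IgG 3 (58.6 to 76.1%, 87.9 to 95.1% and 85.2 to 99.5%). The lowest IgG share thus lay above the highest limit in 15C4. This pair was picked after its values were seen, so no test is given. In Hist2h2ac, 54.99% of 50-base stretches occur in another annotated transcript, where counting could divide reads.

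The pair of Hist1h2ac and Hist1h2bc was one-sided in every library. Hist1h2ac, an H2A gene, was at 0 counts in each 15C4 library, against 5, 19 and 0 in IgG 1, 2 and 3, beside between 1367 and 8483 counts of Hist1h2bc. Hist1h2ac did not pass the filter of the edgeR test. DESeq2 gave it an adjusted p of 0.9995 and edgeR without the filter 0.898, while the authors' deposited table gives 0.0400 (IgG over 15C4). The pair of Hist1h2ae and Hist1h2bg differed between libraries. Hist1h2bg, an H2B gene, had 2, 41 and 0 counts in 15C4 and 13, 23 and 7 in IgG, while Hist1h2ae had 1, 25 and 48 in 15C4 and 254, 56 and 31 in IgG. In 3 further pairs both genes had 0 counts in all libraries.

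**Figure D3:**
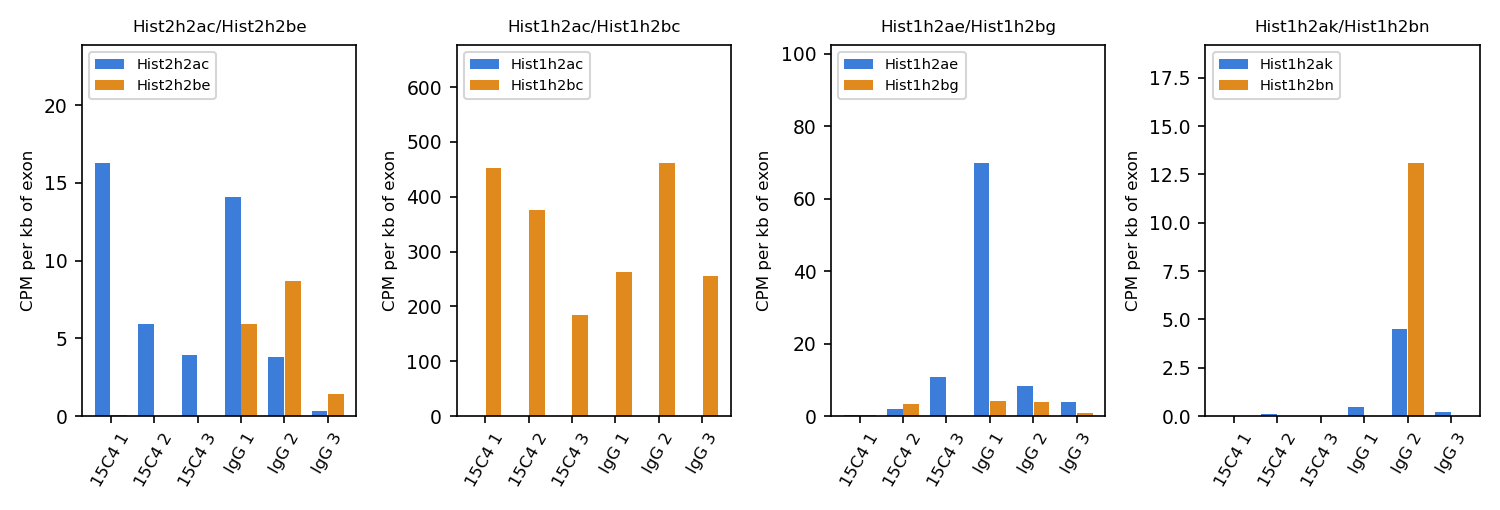
CPM per kilobase of exon in each library for 4 head-to-head pairs, with the H2A gene in blue and the H2B gene in orange. Hist2h2be is close to 0 in the 3 15C4 libraries, where its partner Hist2h2ac is detected, and Hist1h2bc exceeds Hist1h2ac in all 6 libraries.

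Hist1h4d (chromosome 13, 23581598 to 23582735), an H4 gene, was the other tested member whose groups did not overlap. It was at 8.69, 20.0 and 14.4 CPM in 15C4 and at 171, 24.8 and 25.9 CPM in IgG. The log2 fold change was -2.25 (SE 0.89, edgeR unadjusted p = 0.0344). It rested in large part on IgG 1, without which it was -0.70. The authors' deposited table gives no p-value for Hist1h4d. Of the other H4 genes, Hist1h4i had 1, 0 and 0 counts in 15C4 and 12, 9 and 30 in IgG, so that its groups did not overlap either, but it did not pass the filter of the edgeR test. Its level in IgG was 66.2 times that in 15C4 (95% counting interval 11.4 to 2664), 28.5 times without 15C4 2, and in 15C4 at least 16.7-fold lower without 15C4 1. DESeq2 gave Hist1h4i an adjusted p of 0.736 and edgeR without the filter 0.898, while the authors' deposited table gives 0.00214 (IgG over 15C4). Hist1h4b, at 1.79, 1.28 and 3.44 CPM in 15C4 and 1.35, 2.39 and 0 CPM in IgG, had a log2 fold change of 0.92 (SE 1.81).

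Among H2A genes, Hist1h2ae was at 0.119, 1.28 and 7.51 CPM in 15C4 and 49.1, 5.81 and 2.66 CPM in IgG. Its log2 fold change was -2.52 (SE 1.65), -0.32 without IgG 1 and -4.61 without 15C4 3. Hist1h2ab was at 0.714, 3.78 and 1.10 CPM in 15C4 and 15.5, 4.67 and 3.51 CPM in IgG, a log2 fold change of -1.95 (SE 1.35), with 15C4 2 above IgG 3. This was -1.002 without IgG 1 and -2.98 without 15C4 2. Both genes were highest in IgG 1. Hist3h2a, the H2A gene of the Hist3 cluster, was at 9.76, 6.34 and 0 CPM in 15C4 and 7.54, 8.505 and 11.0 CPM in IgG, with a log2 fold change of -0.73 (SE 1.53), which was -0.15 without 15C4 3. Its annotated span overlaps Trim17 on the same strand, so their reads may not be told apart.

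A further H2B gene went the other way. Hist1h2be was at 17.7, 14.9 and 0 CPM in 15C4 and 3.09, 3.01 and 0.171 CPM in IgG, a log2 fold change of 2.42 (SE 1.88). The groups overlapped because 15C4 3 had no count. Without 15C4 3 the log2 fold change was 3.02 and the unadjusted edgeR p was 0.0482, with an adjusted p of 0.9986. Its annotated span overlaps that of Hist1h1e on the same strand, so reads of these genes could be divided between them. Hist1h2bn had 48 counts, all in IgG 2, and was at least 20.8-fold lower in 15C4 with 3 counts over the group as the floor, 8.94-fold without 15C4 2 and 37.1-fold without IgG 3, while without IgG 2 it was at 0 in every library.

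Of the 6 linker histone genes, Hist1h1e and Hist1h1c passed the filter, and neither differed beyond its spread. Hist1h1e was at 19.0, 15.9 and 3.44 CPM in 15C4 and 35.6, 17.0 and 20.2 CPM in IgG, with a log2 fold change of -0.88 (SE 0.83), which was -0.49 without IgG 1 and -0.44 without 15C4 3. Hist1h1c was at 2.98, 8.28 and 0.156 CPM in 15C4 and 3.28, 2.59 and 4.97 CPM in IgG, with a log2 fold change of 0.15 (SE 1.49), and its direction turned without 15C4 2 (-1.22) and without IgG 2 (-0.054). Of the others, Hist1h1d had 8, 19 and 0 counts in 15C4 and 71, 21 and 7 in IgG. Hist1h1b, a linker histone gene of dividing cells, had 0, 1 and 0 counts in 15C4 and 12, 12 and 0 in IgG. Both were lower in mean CPM in 15C4 with overlapping groups, and DESeq2 gave each an adjusted p of 0.9995. The H3 genes with at least 30 counts were each confined to 1 15C4 library apart from a single count in IgG 3. Hist1h3d had 67 counts in 15C4 1 and Hist1h3e had 32 in 15C4 2, and neither had a count in the other two 15C4 libraries.

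**Figure D4:**
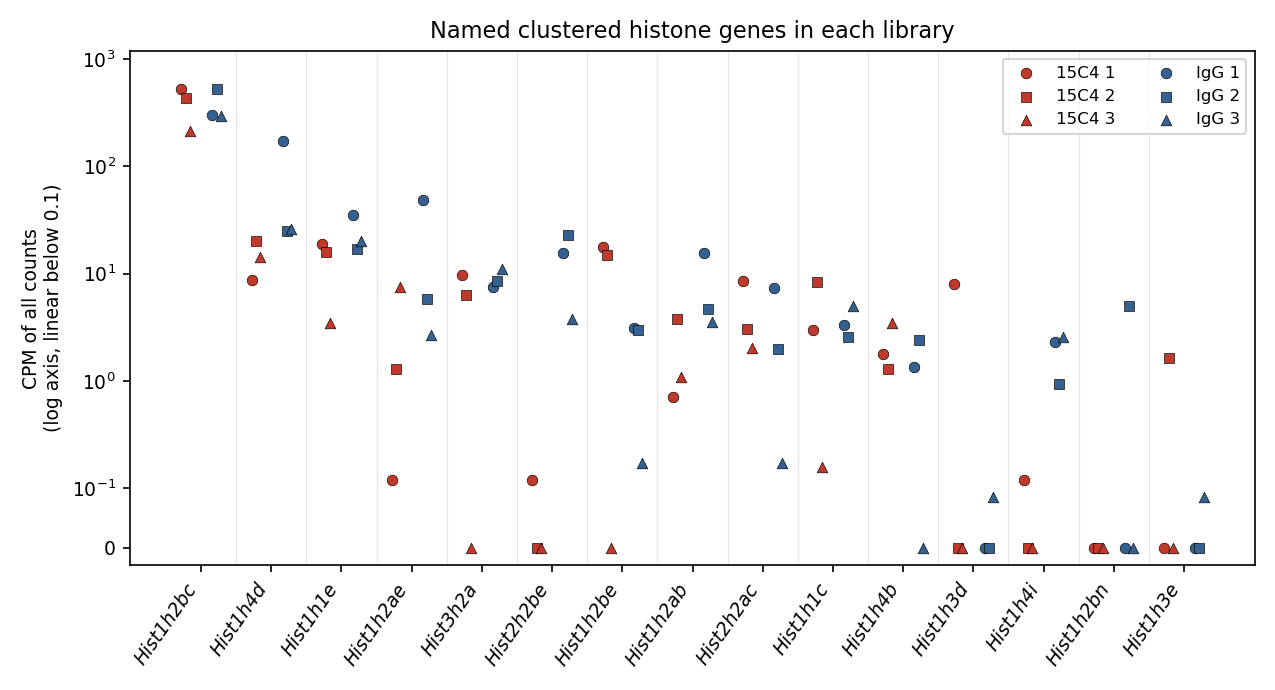
CPM of the 15 named clustered histone genes in each library (log axis, linear below 0.1; red, 15C4; blue, IgG; circle, square and triangle for libraries 1, 2 and 3). Hist2h2be and Hist1h4i lie at or below 0.119 CPM in 15C4 and at 0.933 CPM or more in IgG.

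Where an annotated transcript runs on after the stem-loop was compared with the members' levels. The transcript ended within 100 bases of it in 23 members (3 to 74 bases) and ran further in 23 members (108 to 4884 bases). At least 30 counts over the 6 libraries were reached by 12 of the 23 members with the longer end and by 6 of the 23 with the shorter. The median total was 33 counts with the longer end and 15 with the shorter. Per kilobase of exon the median level was 0.343 CPM with the longer end and 0.479 CPM with the shorter. The exon length used there includes the bases after the stem-loop (median 1249 bases against 485), which lowers the value of the longer group. A relation of level to the longer end was not tested. The highest levels per kilobase among members with a stem-loop were 38.8 CPM for Hist1h4d, whose transcript runs 770 bases past it, and 15.7 CPM for Hist1h2ae, with 151 bases.

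**Figure D5:**
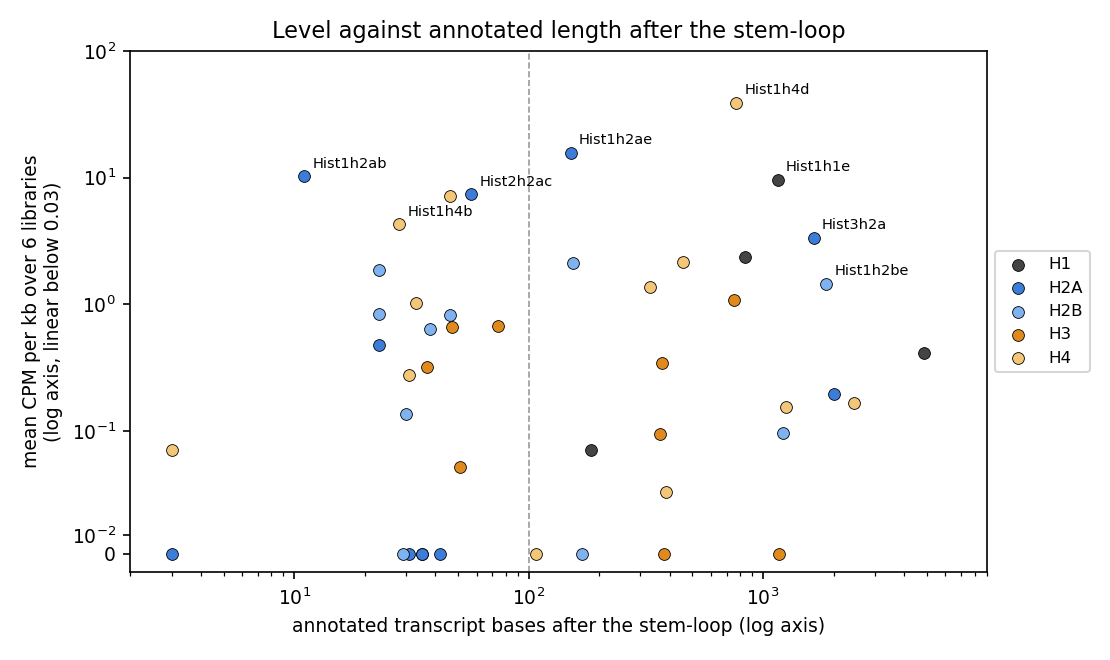
Mean level over the 6 libraries in CPM per kilobase of exon (log axis, linear below 0.03) against the annotated transcript bases after the stem-loop (log axis), for the 46 members with a match, coloured by histone type. The dashed line marks 100 bases. Members on both sides of it range from 0 to above 10 CPM per kilobase.

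Members with most of their sequence shared were frequent among those without counts. The share of a member's 50-base transcript stretches that also occur in another annotated transcript, on either strand, had a median of 51.9%. The other transcript can be a near-identical copy or a gene annotated over the same place, and the share does not separate these. Of the 12 members with at least 90% of stretches shared, 7 had 0 counts in all libraries and 1 reached 30 counts. Of the other 56 members, 7 had 0 counts and 21 reached 30 counts. Of the 5 members with 100% of stretches shared, Hist2h2aa1 and Hist2h2aa2 (H2A) and Hist2h3c1 (H3) had no count in any library. Hist2h2bb (H2B) had 68 counts and Hist2h3b (H3) had 8. Each of these 5 overlaps another annotated gene. How the authors' counting treated reads that match several genes is not given in the sources used here, so a 0 for such a member does not show that it was silent.

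Genes outside the clusters that serve the same proteins were counted from lists. Most replacement histone genes are transcribed throughout the cell cycle and yield polyadenylated mRNAs. Those listed summed to 2342, 2271 and 3297 CPM in 15C4 and 2663, 2092 and 1989 CPM in IgG. Of their 9 tested members 4 were above and 5 below 0 on the log2 fold scale (median -0.074, and 0.12 without IgG 1), and none passed. H3f3b, which encodes the replacement variant H3.3, averaged 1737 ± 320 CPM for 15C4 and 1449 ± 176 CPM for IgG (n = 3 each, SD), with a log2 fold change of 0.37 (SE 0.30). The variant gene H2afy, which encodes macroH2A, had a log2 fold change of -0.28 (SE 0.37). H2afz, the gene of H2A.Z, was at 278, 275 and 728 CPM in 15C4 and 496, 138 and 283 CPM in IgG, highest in the library with the fewest clustered histone genes.

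Of the genes that transcribe and process histone mRNA, 12 of 21 tested were above and 9 below 0 (median 0.34). Of all tested genes 49.3% were below 0. At an edgeR unadjusted p under 0.05, 1 was lower and 1 higher, against 1.33% and 1.26% of all tested genes. None passed the adjusted threshold. Lsm11, the U7 subunit, was at 6.31, 3.73 and 6.88 CPM in 15C4 and 15.3, 30.1 and 34.9 CPM in IgG, without overlap. Of all tested genes, 6.64% were separated in this direction. The log2 fold change of Lsm11 was -2.15 (SE 0.80, edgeR unadjusted p = 0.0262, adjusted p = 0.9997), and between -2.43 and -1.87 when any 1 library was left out. Lsm10, its partner in U7, had a log2 fold change of 0.025 (SE 0.61), and Slbp, the stem-loop binding protein gene, of 0.41 (SE 0.52). Npat, the activator of clustered histone genes, was at 0.34 (SE 0.48) on the same scale. Ncbp2, a subunit of the cap-binding complex, had a log2 fold change of 1.19 (SE 0.49, edgeR unadjusted p = 0.0392). Cdk2, a kinase that phosphorylates NPAT and the most abundant gene of this list in CPM, was at 787, 428 and 376 CPM in 15C4 and 305, 401 and 355 CPM in IgG.

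Histone chaperone genes were evenly split, with 10 above and 10 below 0 (median 0.036), and the median was -0.10 without IgG 1 and -0.18 without 15C4 3. Atrx, a remodeller that deposits H3.3 and the most abundant of the list in CPM, averaged 2026 ± 259 CPM in 15C4 and 2158 ± 676 CPM in IgG (n = 3 each, SD). Nasp, a chaperone of H1 and H3-H4, was at 26.8, 64.6 and 30.2 CPM in 15C4 and 98.7, 86.4 and 86.6 CPM in IgG, without overlap (log2 fold change -1.06, SE 0.51, edgeR unadjusted p = 0.0704). Rbbp7, a subunit of histone-binding complexes, went the other way without overlap (0.79, SE 0.37, edgeR unadjusted p = 0.0651). Of all tested genes, 2.88% were separated in the direction of Rbbp7 and 6.64% in that of Nasp. Of the DNA replication genes, 32 of 42 tested were below 0 (median -0.54), against 49.3% of all tested genes, and none passed. At an unadjusted p under 0.05, 4 were lower, against 1.33% of all tested genes, and 1 without IgG 1, where 29 of 42 were below 0. Pole, the catalytic subunit of DNA polymerase epsilon, was at 2.14, 0.255 and 0 CPM in 15C4 and 17.0, 20.2 and 18.6 CPM in IgG. Its groups did not overlap, where 6.64% of tested genes were separated in this direction. Pcna, the sliding clamp of the polymerases and the most abundant of the list in CPM, averaged 165 ± 39.4 CPM in 15C4 and 213 ± 20.5 CPM in IgG (n = 3 each, SD), and Rpa3, a subunit of the single-strand binding protein RPA, had a log2 fold change of 0.78 (SE 0.49). Of the mitosis genes 17 of 22 were below 0 (median -0.60) and 3 were lower at an unadjusted p under 0.05, against the same 49.3% and 1.33%, and none passed. This rested on IgG 1, without which 7 of 22 were below 0 with a median of 0.70. Top2a, the topoisomerase that untangles chromosomes and the most abundant of them in CPM, was at 138, 71.0 and 178 CPM in 15C4 and 591, 283 and 167 CPM in IgG, with overlapping groups. Aurkb, a mitotic kinase that phosphorylates histone H3, was at 0.357, 0.817 and 0.156 CPM in 15C4 and 39.2, 29.0 and 11.2 CPM in IgG, with a log2 fold change of -5.71 (SE 1.15), and Ccnb2, a cyclin, of 1.41 (SE 0.62).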

How the data were processed

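Per the labels' protocols, sorted cells were lysed in RLT buffer, cDNA was PCR-amplified and libraries were made with Nextera XT. The authors deposited whole-number counts per gene symbol for each library. The submitters' processing notes name featureCounts, STAR 2.5b, fastp and DESeq2, with the builds mm10 and mm9 and no roles. Not given in the sources used here: annotation, strand setting and how multi-mapped reads were treated. There is also an authors' table of the whole series, deposited with counts that equalled those of the libraries for all 68 members. Per the file headers it holds a log2 ratio (IgG over 15C4, judged from the counts) and a p-value and adjusted p-value. Its 6 columns of normalised values were not used.

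TMM-normalised counts were tested in R 4.3.3 by edgeR 4.0.16 (quasi-likelihood), with treatment as the only term. Genes were kept by filterByExpr (minimum count 10 scaled to library size, total 15). Fold changes are 15C4 over IgG, and p was adjusted by Benjamini-Hochberg over all tested genes. CPM are of all counts, without TMM factors. SE is the absolute log2 fold change over the square root of the F statistic. Ratios with 1 to 3 counts in a group use pooled counts with an exact 95% interval. DESeq2 1.42.0 and limma 3.58.1 were alternatives. Coordinates, exon lengths, overlaps and stem-loops are from GENCODE M21 (GRCm38), which held all 68 members, and 67 matched 1 RefSeq symbol. For 3 libraries against 3 the smallest exact permutation p is 0.1, so none was used for single genes.

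The members and lists were chosen with earlier results of these data known. Named members are the 10 with the highest mean CPM, the 5 with the smallest p in each direction, and those with at least 30 counts in one group and at most 3 in the other. From each other list the genes with the smallest p in each direction and the most abundant gene were taken. Lsm10, Slbp, Npat, H2afz, Hist1h1b, Hist1h1d, Hist1h2aa and the partners in pairs were added for their roles after their values were seen. For the marker lists sums are described. Single genes of the macrophage and monocyte list and of the fibroblast list were added after their values were seen.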

Additional observations from a re-analysis of the deposited data

How the results depend on the processing

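The number of genes called was 0, and 1 without a filter on low counts (3830403N18Rik, no histone gene) and 65 with DESeq2, which called 1 clustered histone gene. All other settings called 0, as did each fit with 1 library left out (0 to 0). The summed CPM of the members had a mean log2 difference of -0.36, between -0.63 and 0.04 with 1 library left out, and -1.31 without Hist1h2bc. That last value, whose leave-one-out and TMM-scaled forms were chosen after the data were seen, lay between -1.78 and -0.71 with 1 library left out. The list counts and type sums with 1 library left out were also chosen after the data were seen. Mitosis genes below 0 numbered 7 to 20 (17 with all libraries), and DNA replication genes 29 to 36 (32).

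Members under 3 counts, in place of 0, numbered 45 in 15C4 2, 36 in IgG 1 and 52 in IgG 3, where 36, 25 and 43 were at 0. Members under 0.580 CPM, what 3 counts give in the shallowest library, numbered 51 in 15C4 2, 36 in IgG 1, 39 in IgG 2 and 52 in IgG 3. Under this limit IgG 1 and IgG 2 still had the fewest undetected members. Members below it are not shown to be absent at this depth.

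Of 269 alternative log2 fold changes of 21 genes, 259 kept direction and side of the threshold, and Hist2h2be and Aurkb passed with DESeq2. The direction turned for Hist1h2bc (between -0.075 and 0.43 with 1 library left out), Hist2h2ac (-0.14 to 2.12) and Hist1h1c (-1.22 to 0.69, -0.43 with limma-voom and -0.65 with the replicate block). The cause was not tested.

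Libraries with the same number were not taken as pairs: their deviations from the group means correlated at -0.036, 0.063 and 0.10. 15C4 2 and 15C4 3 correlated best with the IgG library of their own number, and 15C4 1 with IgG 2. With the replicate number as a block, edgeR called 0 genes and 0 members, with a smallest adjusted p of 1.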
